A study of Canis lupus familiaris with 14 samples.

Results

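TFPI2 (ENSCAFG00000002040) encodes tissue factor pathway inhibitor 2, and its expression is described here in paired bone and tumor samples from 7 dogs with osteosarcoma. It is 1 of the 30951 Ensembl genes of the count table, of which 27655 had at least 1 count. The gene was chosen by its measured rise from bone to tumor in these libraries, so the difference between the tissues is given as a description without a test. The product is a secreted serine protease inhibitor built of Kunitz domains, the same kind of domain as in the anticoagulant TFPI. It is deposited in the extracellular matrix, where it inhibits plasmin and trypsin and, more weakly, the factor VIIa and tissue factor complex. TFPI2 is known from placenta and endothelium, and in several human cancers the gene is silenced by methylation of its promoter and is regarded as a candidate tumor suppressor.

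Polyadenylated RNA was sequenced from 14 libraries, 1 of bone and 1 of tumor for each of dogs A to G. The bone was the second phalanx of the amputated limb. The primary tumors lay in the left distal radius (dogs A, C and E), the left distal femur (B), the left proximal humerus (D), the right distal radius (F) and the right distal tibia (G), and all samples were taken before chemotherapy. Dogs A and F were Golden Retrievers, D and G were Greyhounds, B was a Rottweiler, C a Doberman Pinscher and E a Great Pyrenees (spelled Great Pyranees in the labels). Bone and tumor RNA were extracted by different methods, so the method and the tissue cannot be told apart. By the study's own measurements, RNA integrity was lowest in the bone of dog B and the tumor of dog A.

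Total counts lay between 22564544 and 34479429 in bone and between 18650945 and 32887213 in tumor. Tissue identity was checked with marker genes that carry a symbol, which were mainly genes that differed between the tissues in the study. The osteocyte markers SOST, MEPE, DMP1 and PHEX summed to 271.4 to 4647 CPM (counts per 1000000 of the library total, scaled by TMM) in bone and to 3.42 to 466.7 CPM in tumor. Of 7 listed osteoblast markers, only BGLAP and SPP1 carried a symbol. Both were significantly lower in tumor, in 7 of 7 dogs each (log2 fold change -2.64, FDR 0.0117, and -2.68, FDR 0.0277). All 4 adipocyte markers with a symbol, of 5 listed, and 3 of 4 Schwann cell markers were significantly lower in tumor. All 7 proliferation markers, among them MKI67 and TOP2A, were significantly higher in tumor, with sums of 38.1 to 82.9 CPM in bone and 174.9 to 1115 CPM in tumor. Of 4 lists with a single marker, pericyte RGS5 was significantly lower in tumor (log2 fold change -1.42, FDR 0.0274, 7 of 7 dogs). Endothelial EMCN (log2 fold change -0.97, FDR 0.0691), chondrocyte COL9A1 (-3.79, FDR 0.275) and skeletal muscle ACTA1 (2.40, FDR 0.229) did not pass. Macrophage, T cell and erythroid markers had no symbol here and were not analysed. Per the study, marrow and cells outside the bone matrix had been removed from the bone, while the tumors could hold many cell types. In such bulk RNA, fewer cells of a type and less RNA per cell cannot be told apart.

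TFPI2 had counts in all 14 libraries, at least 193 in each. In bone, the raw counts were 601 in dog A, 375 in B, 257 in C, 462 in D, 719 in E, 555 in F and 193 in G. In tumor, they were 538 in dog A, 1353 in B, 15977 in C, 3750 in D, 1154 in E, 12573 in F and 5265 in G. Thus 6 dogs had more raw counts in tumor than in bone, and dog A had fewer in the tumor, from a smaller library of 22970681 against 30628986 counts.

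Scaled to library size, TFPI2 in bone was 5.48 CPM in dog G, 8.51 in C, 12.2 in D, 13.3 in F, 13.6 in B, 19.4 in A and 32.5 in E. The mean was 15.0 ± 8.88 CPM (SD, n = 7), and the highest bone was 5.93-fold above the lowest. With the 95% exact Poisson interval of the counts, which covers counting error only, the bones of dogs D, F and B could not be placed in order, while the other steps were larger than this error. In tumor, the level was 33.7 CPM in dog A, 38.0 in B, 48.6 in E, 119.0 in D, 216.7 in G, 375.2 in F and 711.9 in C. The mean was 220.4 ± 249.5 CPM (SD, n = 7), and the tumors spanned a 21.1-fold range. Dogs A, B and E formed the low end, and the interval of A (30.9 to 36.7 CPM) overlapped that of B, which reached up to 40.1 CPM. Each tissue of each dog was a single library, so the spread between repeated samples of 1 tumor is unknown.

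TFPI2 was higher in tumor than in bone in 7 of 7 dogs. The smallest rises were 1.49-fold in dog E (95% exact binomial counting interval 1.36 to 1.64), 1.74-fold in A (1.54 to 1.95) and 2.80-fold in B (2.49 to 3.14). Dog D stood between with 9.75-fold (8.85 to 10.8). The largest rises were 28.2-fold in dog F (25.9 to 30.7), 39.5-fold in G (34.2 to 45.8) and 83.6-fold in C (73.9 to 94.96). On the log2 CPM scale the changes ran from 0.58 in dog E to 6.37 in dog C, with a mean of 3.23 ± 2.33 (SD, n = 7) and a median of 3.28. Against the 15587 genes that passed the filter on low counts, 20 genes (0.128%) had a larger mean rise, and 775 genes (4.97%) had a more variable one.

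**Figure D1:**
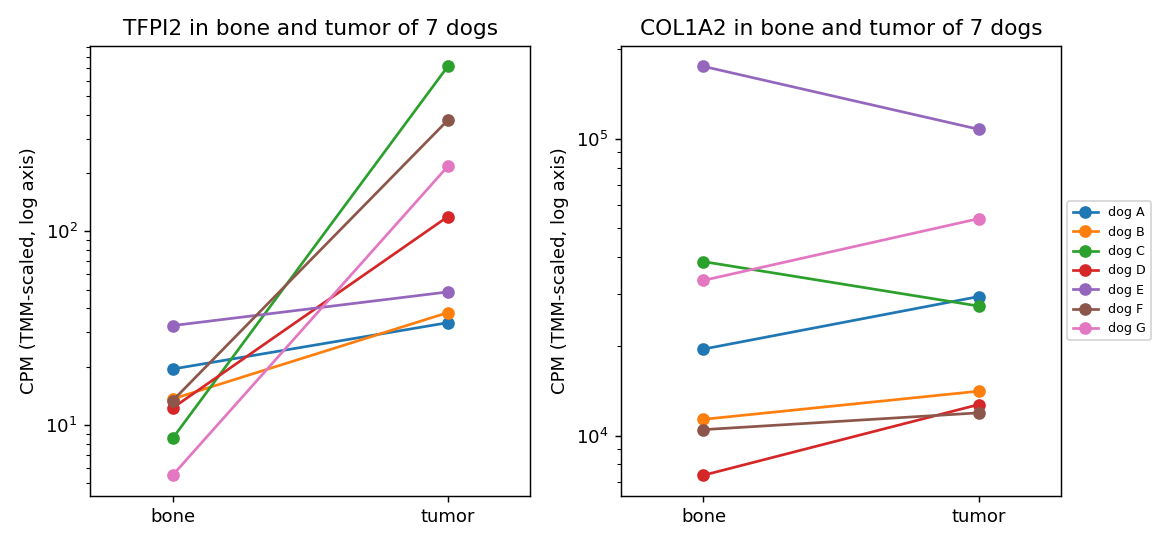
TFPI2 (left) and its chromosomal neighbor COL1A2 (right) in bone and tumor, in CPM scaled by TMM on a log axis; each line joins the libraries of 1 dog. TFPI2 rose in all 7 dogs, from 1.49-fold in dog E to 83.6-fold in dog C, while the COL1A2 lines slope up in 5 dogs and down in dogs C and E.

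The groups did not overlap, but the margin was narrow. The lowest tumor, that of dog A with 33.7 CPM, was 1.04-fold of the highest bone, that of dog E with 32.5 CPM (counting interval 30.2 to 35.0 CPM), and the counting intervals of these libraries overlapped. Of all 27655 genes, 388 (1.4%) had their lowest tumor above their highest bone. The gap of TFPI2 was 0.05 on the log2 CPM scale with TMM, 0.07 with DESeq2 size factors, 0.06 with variance-stabilized counts and 0.17 without TMM. The rise in dog A rested in part on scaling, since the TMM factor was 0.695 for its tumor and 1.01 for its bone. By plain library totals it was 19.6 CPM in bone and 23.4 CPM in tumor. On each of these 4 scales the tumor was higher in 7 of 7 dogs.

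The order of the dogs differed between the tissues. The bones with the most TFPI2, those of dogs E and A, came from dogs whose tumors were among the 3 lowest. The bones with the least, those of dogs G and C, came from dogs whose tumors were among the 3 highest. The SD of log2 CPM was 1.72 over tumors, with a median of 0.62 over all filtered genes, and 0.81 over bones, with a median of 0.36. The 2 Golden Retrievers (dogs A and F) had changes of 0.79 and 4.81 on the log2 scale, and the 2 Greyhounds (D and G) had changes of 3.28 and 5.29. The 3 dogs with a tumor in the left distal radius held the lowest tumor level (A), the third lowest (E) and the highest (C). Part of this order rested on scaling. By plain library totals tumor E (35.1 CPM) lay below tumor B (45.4 CPM), and bone E (20.9 CPM) lay close to bone A (19.6 CPM).

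COL1A2 (ENSCAFG00000002069) encodes the alpha 2 chain of type I collagen, the main protein of bone matrix, and lies near TFPI2 on chromosome 14. In the RefSeq annotation of assembly UU_Cfam_GSD_1.0, which is not the build of the counts and was used for gene order only, it is the protein-coding gene 5 places from TFPI2. Its counts in bone were 605863 in dog A, 313173 in B, 1164034 in C, 278437 in D, 3871616 in E, 436420 in F and 1173152 in G. Its counts in tumor were 469415 in A, 502740 in B, 613137 in C, 400910 in D, 2555561 in E, 399960 in F and 1307269 in G. Dog E was highest in both tissues, where this gene alone took 11.2% of the bone library and 7.77% of the tumor library.

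The paired change of COL1A2 was between -0.70 in dog E and 0.79 in dog D on the log2 CPM scale, with a mean of 0.20 ± 0.59 (SD, n = 7). The edgeR quasi-likelihood test with dog in the design gave a log2 fold change of 0.20 and an FDR of 0.798. In dog C, where TFPI2 rose most, COL1A2 was lower in the tumor by a log2 change of -0.50. Expressed as TFPI2 counts per 10000 COL1A2 counts, a ratio that needs no scaling between libraries, dog A went from 9.92 in bone to 11.5 in tumor and dog C from 2.21 to 260.6. In each of the 7 dogs the tumor had the higher ratio. Its increase was 1.16-fold in dog A, 2.25-fold in B, 2.43-fold in E, 5.64-fold in D, 24.5-fold in G, 24.7-fold in F and 118.0-fold in C.

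Across the 7 tumors no relation between the levels of TFPI2 and COL1A2 was detected (Pearson r = -0.19, exact permutation p = 0.688; Spearman rho = -0.29, exact permutation p = 0.556). Across the 7 bones r was 0.35 (exact permutation p = 0.438) and rho was 0.14 (exact permutation p = 0.783). Across the 7 paired changes r was 0.0096 (exact permutation p = 0.981) and rho was 0.14 (exact permutation p = 0.783). Over these 3 relations every Pearson p was 0.981 after adjustment and every Spearman p 0.783. Without the 2 libraries farthest from the median of TFPI2, r became -0.26 in tumors, -0.35 in bones and 0.016 in the changes. The sign of r rested on dog E: without it, r was 0.11 in tumors, -0.59 in bones and -0.52 in the changes. Without dog G the r of the changes was -0.16. With 7 samples, an exact p cannot fall below 0.000198.

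**Figure D2:**
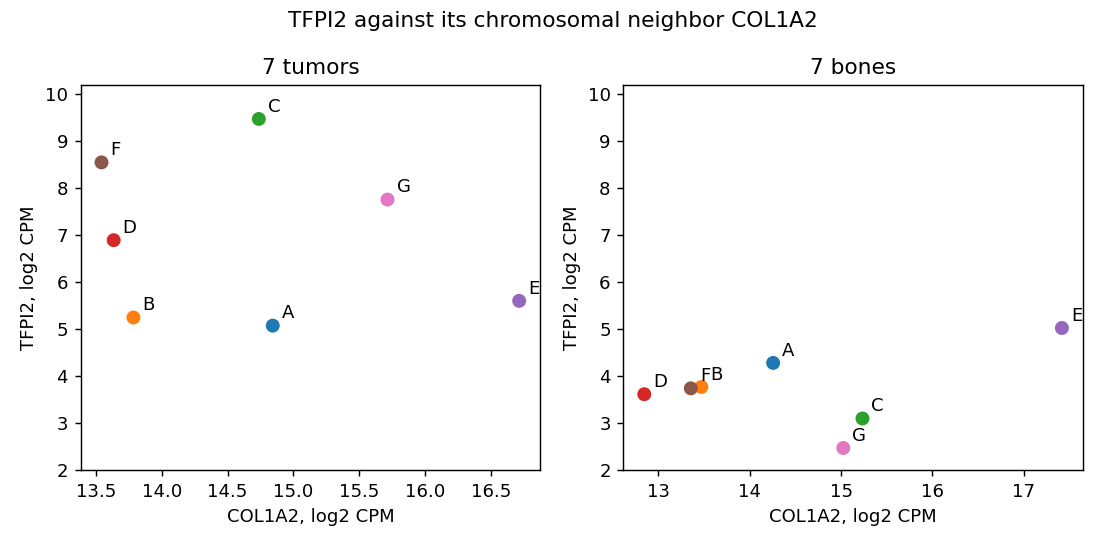
TFPI2 (vertical axis) against COL1A2 (horizontal axis), both in log2 CPM, in 7 tumors (left) and 7 bones (right), with 1 lettered point for each dog. Dog E stands far to the right in both panels, and neither panel shows a relation that passed the test (adjusted exact permutation p = 0.981 in both).

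The other genes of the chromosomal region were taken from a list of 20 genes around TFPI2, of which 5, COL1A2 included, could be paired with an identifier. Symbols were available mainly for genes that differed between the tissues in the study, so counts over any list here are biased toward change: 15.5% of the genes with a symbol were significantly higher in tumor and 18.8% were significantly lower, against 1.35% and 1.79% of all genes. The median log2 fold change was -0.80 over genes with a symbol and -0.05 over all genes. Significant means an FDR under 0.05, a mean normalized count over 10 and a fold change over 2.

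Of the 5 neighbors, 0 were significantly higher and 1 was significantly lower. Without adjustment, the p of CDK6 (0.00378), PEG10 (0.00386), PDK4 (0.00226) and CALCR (2.88e-05) lay under 0.05, all by the edgeR test. CALCR, the calcitonin receptor of osteoclasts and in that annotation the protein-coding gene next to TFPI2 on the side away from COL1A2, fell from bone to tumor in each of the 7 dogs (log2 fold change -4.79, FDR 0.00561). Its level was 5.43 to 18.2 CPM in bone and 0 to 1.56 CPM in tumor, without overlap, opposite in direction to TFPI2. CALCR is also an osteoclast marker. The other 5 osteoclast markers with a symbol, MMP9, ACP5, CTSK, OCSTAMP and ATP6V0D2, did not reach significance by edgeR (log2 fold changes -2.08 to -1.26, FDR 0.234 to 0.310), while all 5 passed the DESeq2 Wald test (adjusted p 0.0104 to 0.0384), and the 6 summed to 4194 to 18733 CPM in bone and 220.7 to 21559 CPM in tumor. The part of osteoclasts in the fall of CALCR was not tested.

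CDK6, a kinase of the G1 phase 6 places away on the same side as CALCR, was higher in 7 of 7 tumors, with an FDR of 0.0708 (log2 fold change 1.05). PEG10, an imprinted gene derived from a retrotransposon, was higher in 6 of 7 tumors, with an FDR of 0.0715 (log2 fold change 1.36). PDK4, which restrains pyruvate dehydrogenase, was lower in 7 of 7 tumors, with an FDR of 0.0535 (log2 fold change -2.42). These 3 genes passed the edgeR test after filtering of low counts, with FDR values of 0.0404, 0.0483 and 0.0433, which gave 2 higher and 2 lower neighbors, as did the DESeq2 Wald test. Genes close to TFPI2 thus had log2 fold changes of either sign. Across tumors their r with TFPI2 was 0.18 for CDK6, 0.16 for CALCR, 0.11 for PEG10 and -0.16 for PDK4, and 0 of the 5 relations passed, before or after adjustment (exact permutation test, smallest p 0.682, adjusted p 0.797 for each). Leaving out the 2 tumors farthest from the median of TFPI2 gave r of -0.13 for CDK6, -0.38 for CALCR, 0.27 for PEG10 and -0.11 for PDK4.

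**Figure D3:**
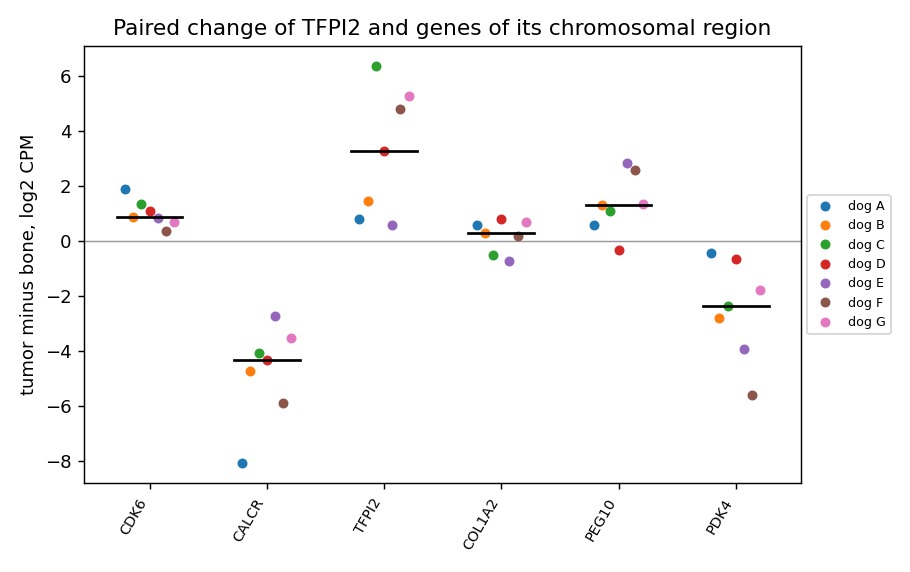
Paired change (tumor minus bone, log2 CPM) of TFPI2 and 5 neighbors in chromosomal order; each point is 1 dog and the bar is the median. TFPI2 lies above 0 in all dogs with the widest upward spread, CALCR below 0 in all dogs, and COL1A2 on both sides of 0.

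Inhibitors of proteases other than TFPI2 were examined in a list of 40 genes of the Kunitz, serpin and TIMP families. A symbol was held for 9 of them, and TFPI, SPINT1, SPINT2, TIMP1 and TIMP2 were not analysed here. Of the 9, 2 were significantly higher in tumor, 5 were significantly lower and 2 did not pass, with a median log2 fold change of -1.75. Among all genes with a symbol, 15.5% were higher and 18.8% were lower, and no test of the list against them was run.

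SERPINH1, the collagen chaperone HSP47, which shares the serpin fold without inhibiting proteases, rose in 7 of 7 dogs (log2 fold change 1.17, FDR 0.0215). SERPINB2, or PAI-2, also rose in 7 of 7 dogs (log2 fold change 4.13, FDR 0.018), but from at most 0.264 CPM in bone to at most 10.4 CPM in tumor, and it did not pass the filter on low counts.

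The inhibitors that fell included both TIMP genes, whose products block matrix metalloproteinases. TIMP3 was 105.9 to 262.3 CPM in bone and 29.4 to 124.5 CPM in tumor (log2 fold change -1.75, FDR 0.0136). TIMP4 was 3.11 to 21.2 CPM in bone and 0 to 1.14 CPM in tumor (log2 fold change -3.53, FDR 0.018). Both were lower in 7 of 7 dogs. The Kunitz gene PAPLN, an extracellular matrix protein, had a log2 fold change of -2.27 (FDR 0.0482), and SERPINI1, or neuroserpin, an inhibitor of tissue plasminogen activator, had one of -1.49 (FDR 0.0167). SERPINA3, an inhibitor of chymotrypsin-like proteases, fell in 6 of 7 dogs (log2 fold change -4.53, FDR 0.0377). The 2 members that did not pass, named after their values were seen, were COL6A3, a collagen VI chain with a Kunitz domain (log2 fold change 1.40, FDR 0.0688), and SERPINF1, or PEDF (log2 fold change -1.80, FDR 0.0877). After filtering of low counts COL6A3 passed (FDR 0.0483), and the list again held 2 higher and 5 lower genes.

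Proteases of coagulation and fibrinolysis, their receptors and the matrix metalloproteinases made up a list of 47 genes, 14 of them with a symbol. F3, F7, F10, PLAT, MMP1 and MMP2 were not analysed here. Of the 14, 4 were significantly higher in tumor, 2 were significantly lower and 8 did not pass, with a median log2 fold change of -0.19. Among all genes with a symbol, 15.5% were higher and 18.8% were lower, and the list was not tested against them. The balance depended on the test, since the DESeq2 Wald test gave 5 higher and 7 lower. PLAU, urokinase, which converts plasminogen to plasmin, was 15.8 to 46.1 CPM in bone and 38.5 to 205.9 CPM in tumor (log2 fold change 1.51, FDR 0.0221). PLAUR, its receptor on the cell surface, was 6.74 to 17.4 CPM in bone and 40.6 to 321.5 CPM in tumor, without overlap (log2 fold change 2.61, FDR 0.00609). The tumor of dog G had the most of both.

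Plasminogen itself (PLG) is a liver gene and the precursor of the protease that TFPI2 inhibits. It was at 0 counts in all 7 bones and between 0 and 2.01 CPM in the tumors, and it did not pass (FDR 0.0901). MMP12, the macrophage elastase, rose in 7 of 7 dogs, from 1.09 to 3.13 CPM in bone to 5.64 to 38.6 CPM in tumor (log2 fold change 2.71, FDR 0.0032). MMP14, a membrane-bound collagenase that activates other metalloproteinases, rose from 384.3 to 925.5 CPM in bone to 1054 to 1944 CPM in tumor, without overlap (log2 fold change 1.04, FDR 0.019).

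The genes that fell were PROS1, the protein S cofactor of activated protein C (log2 fold change -1.58, FDR 0.0148), and F2RL2, the thrombin receptor PAR3 (log2 fold change -2.45, FDR 0.0497). MMP9 and MMP13, the gelatinase B and collagenase 3 genes, had log2 fold changes of -2.08 (FDR 0.241) and -2.64 (FDR 0.0673), lower in 6 of 7 dogs each. Both passed the DESeq2 Wald test (adjusted p 0.0104 and 4.09e-05). MMP9 was higher in the tumor of dog D (2.21 on the log2 CPM scale). That tumor had the highest sum of osteoclast markers, but MMP9 is itself 1 of them and made up 11472 of the 21559 CPM. The other 5 that did not pass, named after their values were seen, were F8, F11, F12, HPN and ST14, with FDR values from 0.0422 (F12, whose fold change was under 2) to 0.139. After filtering of low counts F8 passed as well, which gave 4 higher and 3 lower genes.

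**Figure D4:**
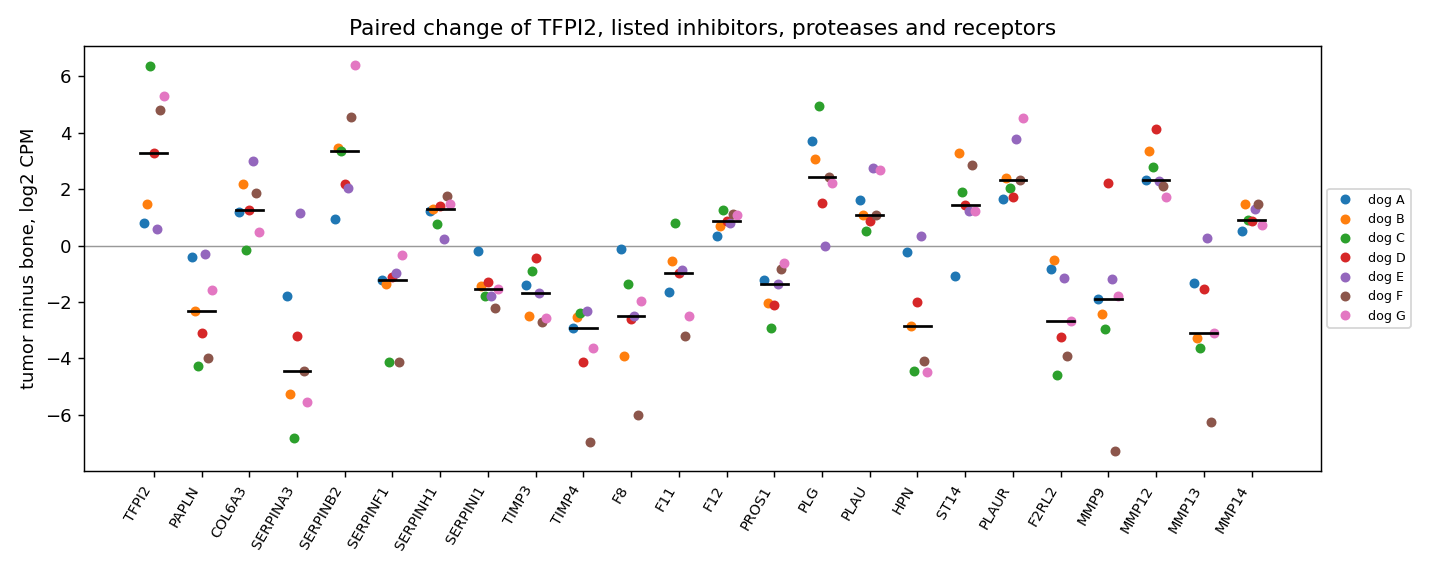
Paired change (tumor minus bone, log2 CPM) of TFPI2, the 9 inhibitors and the 14 proteases, cofactors and receptors with a symbol; each point is 1 dog and the bar is the median. SERPINH1, SERPINB2, F12, PLAU, PLAUR, MMP12 and MMP14 lie above 0 in all dogs like TFPI2; PLG values rest on 0 counts in bone and on the prior count of 2.

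Of 21 listed inhibitor and protease genes that passed the filter on low counts, examined after the data were seen, 0 passed after adjustment and 2 had an unadjusted p under 0.05, HPN and COL6A3. SERPINB2 and PLG did not pass the filter and were not tested in this way; SERPINB2 was 10.4 CPM in tumor G, 7.76 in F and 1.96 in C, and 0.250 to 0.674 CPM in the others. HPN, the membrane protease hepsin, had r = -0.86 and rho = -0.82 (exact permutation p = 0.0335 and 0.0341, adjusted p = 0.364 and 0.700), at 0.0823 to 1.74 CPM in tumor. COL6A3 had r = -0.70 and rho = -0.57 (exact permutation p = 0.0498 and 0.200, adjusted p = 0.364 and 0.700). Without the 2 tumors farthest from the median of TFPI2, r was -0.89 for HPN and -0.48 for COL6A3. For PLAU r was -0.26, for PLAUR 0.02 and for MMP14 -0.13. Leaving out the same 2 tumors gave r of 0.22 for PLAU, 0.27 for PLAUR and 0.03 for MMP14.

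Cell type markers were set beside TFPI2 in the same way, as the mean log2 CPM of each list with at least 2 markers. The proliferation markers had r = 0.58 (exact permutation p = 0.173, adjusted p = 0.519) and rho = 0.64 (exact permutation p = 0.139, adjusted p = 0.417). Schwann cell markers had r = -0.68 (exact permutation p = 0.110, adjusted p = 0.519) and rho = -0.75 (exact permutation p = 0.0663, adjusted p = 0.398). Osteoclast, adipocyte, osteoblast and osteocyte lists had r of -0.43, -0.30, -0.26 and 0.02. Without the 2 tumors farthest from the median of TFPI2, r was -0.81 for the osteoblast, -0.36 for the osteocyte, -0.41 for the Schwann cell and 0.57 for the proliferation markers. Of the 6 lists, 0 passed before or after adjustment. The part of these cell types in the level of TFPI2 was not tested further.

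The genes whose levels over the 7 tumors were most like TFPI2 were ranked by Pearson r of log2 CPM among the 4034 genes that passed the filter on low counts and had an SD of at least 1. The r chose these genes, so it is a description with n = 7. Only 3 genes had r of at least 0.9 and 15 had r of at most -0.9. The 10 highest lay between 0.881 and 0.981, led by ENSCAFG00000011681 and ENSCAFG00000005671, and none of the 10 had a symbol. Of these 10, 5 were at 0 counts in at least 1 tumor and 6 had a tumor median under 1 CPM. The 5 lowest included MTMR7, a myotubularin-family phosphoinositide phosphatase, CPAMD8, a relative of alpha-2-macroglobulin and complement C3, and ENSCAFG00000037848 and ENSCAFG00000005286, which have no symbol.

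Genes with a symbol, 858 of the 4034, were looked at after their values were seen. They are mainly genes that differed between the tissues in the study. Those 5 of them with the highest r ranked only 12, 20, 29, 48 and 50 among the 4034. The 5 with the highest r were ANLN, an actin-binding scaffold of cytokinesis (0.87), ZNF879, a zinc finger protein (0.84), CENPK, a kinetochore protein (0.81), SPC25, a subunit of the kinetochore complex NDC80 (0.77), and UHRF1, which maintains DNA methylation after replication (0.77). In the order of rising TFPI2, ANLN was 10.5 CPM in tumor A, 33.9 in B, 15.3 in E, 48.5 in D, 35.8 in G, 60.5 in F and 103.6 in C. The lowest and the highest tumor were thus the same for both genes, with B and E and D and G exchanged. Without the 2 tumors farthest from the median of TFPI2, r was 0.70 for ANLN and 0.83 for UHRF1.

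The 5 with the lowest r were MTMR7 (-0.98), CPAMD8 (-0.96), PDE4C, a cyclic AMP phosphodiesterase (-0.93), RCAN2, a regulator of calcineurin (-0.92), and OSR1, a zinc finger transcription factor of limb and connective tissue mesenchyme (-0.91). CPAMD8 was 24.2 CPM in tumor A, 17.7 in B, 13.9 in E, 13.7 in D, 6.58 in G, 3.52 in F and 3.74 in C. RCAN2 was 23.6 CPM in tumor A, 22.8 in B, 11.4 in E, 5.05 in D, 6.21 in G, 3.25 in F and 3.74 in C. Both were highest in the tumors with the least TFPI2 and lowest in the tumors of dogs C and F. MTMR7 was low throughout, from 0.267 to 2.13 CPM in tumor, as was OSR1, from 0 to 1.75 CPM.

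**Figure D5:**
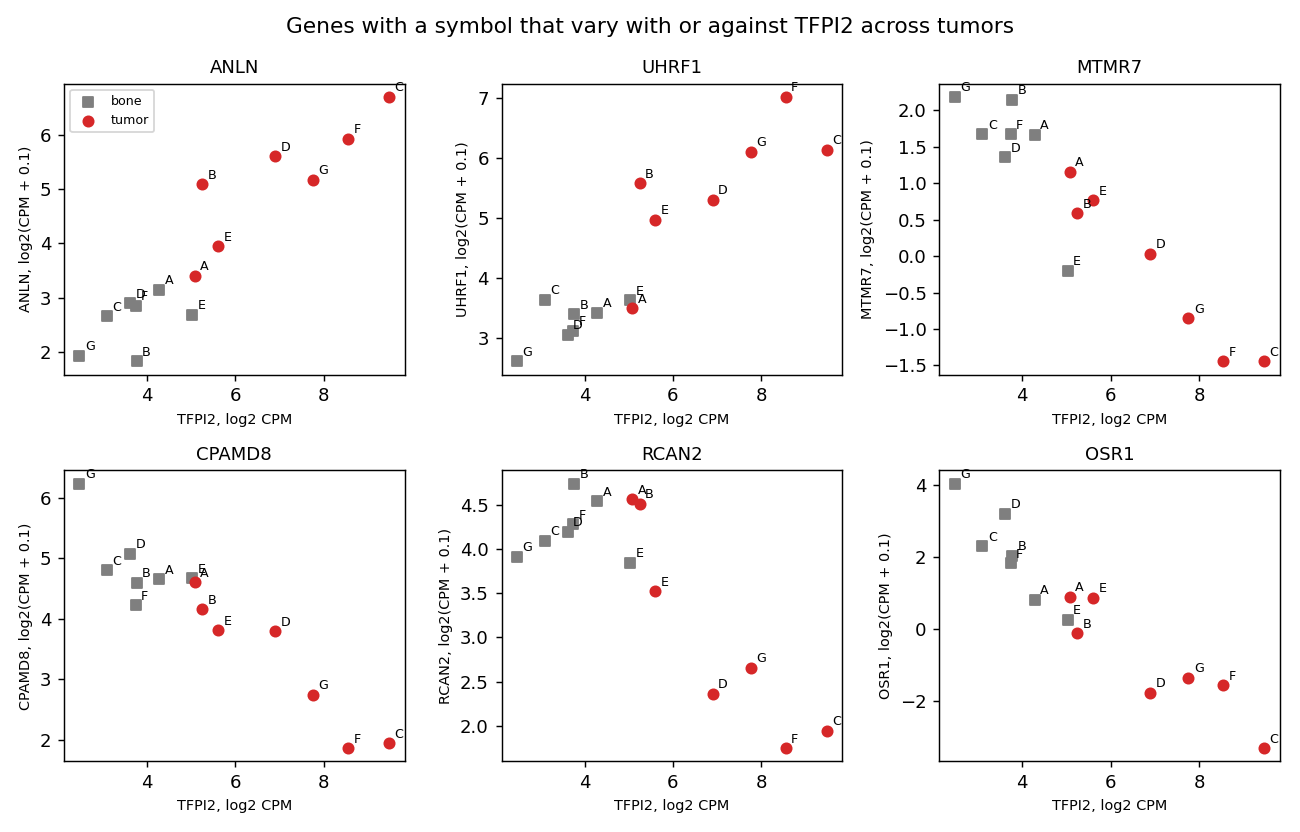
Each of 6 genes with a symbol (vertical axes, log2 of CPM plus 0.1) against TFPI2 (horizontal axes, log2 CPM) in 7 bones (gray squares) and 7 tumors (red circles), lettered by dog. ANLN and UHRF1 are higher, and MTMR7, CPAMD8, RCAN2 and OSR1 lower, in tumors with more TFPI2, the pattern by which they were chosen; in bone OSR1 is also lower where TFPI2 is higher.

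These relations were then examined in the bones, which came from the same dogs and whose r was not used in the ranking, although their counts entered the filter on low counts. For the 10 genes with the highest r in tumors, r in bones lay between -0.57 and 0.37, 3 were positive, and 0 passed before or after adjustment (exact permutation test, smallest p 0.192, smallest adjusted p 0.793). The 10 genes with a symbol were examined in bones only after the data were seen, and symbols cover mainly genes that differ between the tissues. Of these, 8 kept their sign in bones and 1 passed. This was OSR1 (r = -0.91, exact permutation p = 0.00496, adjusted p = 0.0496; rho = -0.93, exact permutation p = 0.00675). OSR1 in bone was 16.3 CPM in dog G, 4.80 in C, 9.09 in D, 3.43 in F, 3.99 in B, 1.65 in A and 1.09 in E, in the order of rising TFPI2. The relation lay at the threshold: the adjusted p was 0.0774 with variance-stabilized counts, 0.0516 with DESeq2 size factors and 0.0675 for rho, and r was -0.67 without the 2 bones farthest from the median of TFPI2. Leaving out any dog other than C also took it past 0.05, with an adjusted p of up to 0.361 without dog G. MTMR7 had r = -0.77 in bones (exact permutation p = 0.0454, adjusted p = 0.227), CPAMD8 -0.67 (adjusted exact permutation p = 0.300), UHRF1 0.66 (adjusted exact permutation p = 0.300) and ANLN 0.47 (adjusted exact permutation p = 0.466). Without the 2 bones farthest from the median of TFPI2, r turned sign for MTMR7 (0.12), UHRF1 (-0.28), ZNF879 (-0.10) and CENPK (0.06), and was -0.28 for CPAMD8 and 0.25 for ANLN.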

How the data were processed

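RNA was extracted from the bone and tumor of 7 dogs, and libraries were made with the TruSeq PolyA kit. Per the labels and the submitters' processing notes, the authors checked reads with FastQC 0.10.1, trimmed them with Trimmomatic 0.39, mapped them with HISAT2 2.2.1 to CanFam3.1 and made counts per gene of Ensembl release 103 with StringTie 1.3.3; the study's methods name another Trimmomatic version. The deposited table holds those counts as they were, not normalized. Strand and multi-mapping settings are not given in the sources used here.

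Counts were scaled by TMM and tested by edgeR 4.0.16 (R 4.3.3; quasi-likelihood test, dog and tissue in the design) on the 27655 genes with at least 1 count, with Benjamini-Hochberg adjustment. Log2 CPM used a prior count of 2. DESeq2 1.42.0 gave the Wald test and variance-stabilized counts. Each column was matched to its library by name, and 0 pairs of libraries were identical. The pairing of bone with tumor follows from the dog, which both libraries share. Over 15587 genes, the deviations from the tissue means correlated within dogs at 0.0741 to 0.163 (median 0.110), over 0.1 in 6 of 7 dogs.

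TFPI2, its lists and its tests were chosen with earlier results of these data known. Genes named are TFPI2, COL1A2, its listed neighbors, the direct partners of TFPI2, up to 6 significant members of each list and direction with the smallest FDR, and the 10 highest and 5 lowest by r with TFPI2 over tumors, with at most 2 identifiers without a symbol in each direction. Symbols were paired with 2292 identifiers through the study's supplementary tables, and COL1A2 through its identifier. An inhibitor and a Schwann cell marker of the lists are not reported here and were left out of the counts. Correlations over the 7 dogs were tested by exact permutation, two-sided.

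The edgeR test was tested on simulated counts with 200 genes changed by 2 on the log2 scale. It recovered 88% of them on 27244 genes, where 46.3% of its calls were unchanged genes, and 73% on 15314 genes after filterByExpr removed low counts, where 4.58% were unchanged. Calls after filterByExpr are therefore given beside the main ones for the neighbors, inhibitors and proteases. The significant osteoblast, adipocyte, Schwann cell, pericyte and proliferation markers numbered the same after filterByExpr. Shares over all genes and over genes with a symbol are from the main test only. Alternatives covered the normalization, transformation, prior count, filter, test, pairing, measure of correlation and omission of each dog.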

Additional observations from a re-analysis of the deposited data

Results flagged for a closer look

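Each group of 7 values (a gene's level in bone, its level in tumor or its paired change) was examined for a value that stood apart, as the gap to its nearest neighbor divided by the whole range on the log2 CPM scale, with the limit of Dixon's test. Of 116 such groups 6 had one, and chance gives about 1 in 20. TFPI2 and COL1A2 had none. The tumor of dog G had 321.5 CPM of PLAUR against at most 94.5 CPM in the other tumors (ratio 0.592). The tumor of dog F had 0 counts of TIMP4 (ratio 0.758), which also set its paired change apart (0.607). The tumor of dog C had 741.2 CPM of COL6A3, the lowest tumor (ratio 0.601). In bone, dog E had 0.770 CPM of MTMR7, the lowest (ratio 0.656), and dog G had 75.1 CPM of CPAMD8, the highest (ratio 0.578).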

How the results depend on the processing

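The rise of TFPI2 averaged 3.23 on the log2 scale and lay between 2.95 and 3.24 with variance-stabilized counts, DESeq2 size factors, no TMM, a prior count of 0.5 or the edgeR fit. It was 2.70 to 3.67 with 1 dog left out and 3.88 in the edgeR fit with no replicate block, which drops the pairing of dogs. Without this block, inhibitors were 1 higher and 3 lower instead of 2 and 5, lower proteases 4 instead of 2, and neighbors 1 higher and 2 lower instead of 0 and 1. Dropping the block moved no other count by over 1.5 times. Proteases here stand for the whole protease and coagulation list, cofactors and receptors included. The 2 lower genes of the main test were the cofactor PROS1 and the receptor F2RL2. The DESeq2 Wald test gave 7 lower proteases and 2 neighbors in each direction, as did filterByExpr for the neighbors. With 1 dog left out, higher inhibitors numbered 0 to 3 (0 without F, 1 without A, B, D or G), lower inhibitors 2 to 5 (2 without D or G), higher proteases 3 to 4, lower proteases 1 to 2 (1 without C, D, F or G), higher neighbors 0 to 1 (1 without D) and lower neighbors 1 to 2 (2 without A). The r of TFPI2 with COL1A2 ranged from -0.40 to 0.11 in tumors, -0.59 to 0.61 in bones and -0.52 to 0.47 in the changes. Tested in bones, 1 of the 10 genes with a symbol passed where 0 of the 10 most alike genes did. That gene, OSR1, had r = -0.89 with variance-stabilized counts, -0.91 with size factors, rho = -0.93, and -0.97 to -0.84 with 1 dog left out (adjusted exact permutation p 0.0139 to 0.361). Of the 10 genes most like TFPI2 in tumors, 10 were shared with the ranking by size factors, 4 with that by rho, 2 with that by variance-stabilized counts and 2 to 8 with 1 dog left out. The causes of these shifts were not tested. Depth did not limit TFPI2, whose lowest count was 193, but many of the genes most like it were near 0.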
